A study of Homo sapiens with 11 samples.

Results

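The genes described are 40 genes of the response to low oxygen and of glycolysis, taken by their symbols from the RNA-seq tables of 2 human lung cancer cell lines. All 40 were found in both tables, among 21316 genes listed for A549 and 20915 for H1299. They were read in 3 roles: 7 genes of oxygen sensing, 12 targets of hypoxia-inducible factor (HIF) outside glycolysis, and 21 genes of glycolysis. Their level in each line and their difference between METTL3 knockdown and control were measured.

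A549 is a lung adenocarcinoma line and H1299 is a non-small cell lung carcinoma line that was started from a lymph node metastasis. In each line, 2 libraries came from cells with a short hairpin RNA against METTL3 (shMETTL3, numbered 1 and 2) and 1 library came from cells with a hairpin against GFP (shGFP), a gene these cells do not have. All cells were grown in DMEM with serum and antibiotics, and the sources used here do not give the oxygen level, the hairpin sequences, the way they were delivered or the time after delivery. Nor do they say whether the numbers 1 and 2 stand for different hairpins or for repeats of 1 hairpin, so p-values measure the spread between these libraries, which may be technical.

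In cells with enough oxygen, the prolyl hydroxylases of the EGLN family mark the alpha subunits of HIF for binding by VHL and for breakdown. When oxygen is short, the alpha subunits pair with ARNT and switch on genes for glucose uptake, glycolysis, acid handling and new vessels. METTL3 is the catalytic subunit of the enzyme that writes N6-methyladenosine (m6A) in messenger RNA. In lung carcinoma cells, glycolysis runs at a high rate also when oxygen is present, and many of its enzymes are HIF targets themselves.

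The values in the tables are reads per gene divided by 1 factor per library, called scaled reads here. In A549 they went back to 14447379 reads in shMETTL3 1, 16504759 in shMETTL3 2 and 19966206 in shGFP. For H1299, 1 decimal was kept and read numbers could not be recovered with certainty; the implied depths were 23099169, 25443078 and 26351309. Ribosomal precursor RNA (RNA45S5) held 20.5 to 25.4% of the H1299 values and 0.208 to 0.284% of the A549 values, so levels across the lines are given in reads per 1000000 reads without RNA45S5 (RPM). Transcript lengths were not used, so levels are compared between libraries for 1 gene, not between genes.

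The targeted gene followed the labels in every library. METTL3 had 231.4 and 232.2 scaled reads in A549 shMETTL3, against 556.8 in A549 shGFP. It had 123.1 and 100.2 scaled reads in H1299 shMETTL3, against 271.2 in H1299 shGFP. Its log2 changes were -1.26 (SE 0.19) in A549 and -1.28 (SE 0.25) in H1299. Epithelial markers summed to 26155, 18102 and 18701 scaled reads in A549 shMETTL3 1, shMETTL3 2 and shGFP, and to 1189 to 1610 in H1299, where KRT19 was listed at 0. The mesenchymal markers, led by vimentin, ran from 14050 to 17921 scaled reads in H1299 and from 7259 to 7809 in A549. Markers of the lung lineage, which mark the tissue of origin, summed to at most 11.6 scaled reads in any library, and those of leukocytes, endothelium and red cells summed to at most 29.6.

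The promoters of the members that the results turn on are shown so that their HIF binding core can be read beside the values that follow. The core was searched as ACGTG and GCGTG on both strands in 300 bases, from 250 before to 50 after each RefSeq start on GRCh38.p14, and an overlap of matches in CACGTG counts as 2. Of the 35 members with a window, 31 (88.6%) held at least 1 match in at least 1 window, against 52.4% of 27305 genes; members have more starts per gene than the average gene, and per window 65.6% of 64 held a match, against 48.4% of 35116. By role, 50.0% of 8 windows of oxygen sensors, 81.8% of 11 of HIF targets and 64.4% of 45 of glycolysis genes held one. VHL, VEGFA, NDRG1, BNIP3L and SLC2A3 had no window. A match is a run of letters, not a bound site, and its absence says only that the letters are not in this window.

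EGLN3 is shown as the member with the largest A549 difference, CA9 and ADM as HIF targets with opposite differences, and HK2 (both starts) and LDHA (its first start) as enzymes that stood apart between the lines in opposite directions. Capitals mark the matches, with CACGT and CACGC being the core on the other strand; all are written 5′ to 3′ on the strand of the gene.
EGLN3, chr14:33951025-33951324 (- strand): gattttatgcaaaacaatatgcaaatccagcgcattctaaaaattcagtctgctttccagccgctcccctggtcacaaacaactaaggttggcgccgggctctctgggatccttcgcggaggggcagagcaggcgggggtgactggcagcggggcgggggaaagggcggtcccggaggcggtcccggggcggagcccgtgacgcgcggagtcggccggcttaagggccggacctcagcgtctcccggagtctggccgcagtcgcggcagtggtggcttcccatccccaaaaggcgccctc
CA9, chr9:35673678-35673977 (+ strand): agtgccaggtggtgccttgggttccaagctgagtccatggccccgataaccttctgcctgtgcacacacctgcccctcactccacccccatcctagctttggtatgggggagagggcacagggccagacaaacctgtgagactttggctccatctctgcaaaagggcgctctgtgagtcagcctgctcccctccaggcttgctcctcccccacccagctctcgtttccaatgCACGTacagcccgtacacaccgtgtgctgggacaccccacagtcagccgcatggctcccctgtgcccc
ADM, chr11:10304823-10305122 (+ strand): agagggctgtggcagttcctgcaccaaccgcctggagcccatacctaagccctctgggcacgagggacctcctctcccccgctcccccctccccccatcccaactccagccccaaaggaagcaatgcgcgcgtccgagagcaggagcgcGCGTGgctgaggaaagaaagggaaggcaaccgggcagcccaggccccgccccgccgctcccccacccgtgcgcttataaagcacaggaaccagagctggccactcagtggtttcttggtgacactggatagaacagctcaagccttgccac
HK2 (start 1), chr2:74833877-74834176 (+ strand): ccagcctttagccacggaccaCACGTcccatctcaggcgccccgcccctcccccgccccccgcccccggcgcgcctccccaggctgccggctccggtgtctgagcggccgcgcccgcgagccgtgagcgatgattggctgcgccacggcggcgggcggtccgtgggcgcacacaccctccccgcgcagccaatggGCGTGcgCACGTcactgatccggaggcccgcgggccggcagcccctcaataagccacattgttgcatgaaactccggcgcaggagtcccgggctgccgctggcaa
HK2 (start 2), chr2:74834920-74835219 (+ strand): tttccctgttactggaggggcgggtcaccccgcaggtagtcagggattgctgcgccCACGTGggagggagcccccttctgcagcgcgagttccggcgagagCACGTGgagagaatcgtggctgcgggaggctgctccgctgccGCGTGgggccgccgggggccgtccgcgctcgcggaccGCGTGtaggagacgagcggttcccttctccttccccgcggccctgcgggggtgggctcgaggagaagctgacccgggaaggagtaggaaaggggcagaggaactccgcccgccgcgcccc
LDHA, chr11:18394313-18394612 (+ strand): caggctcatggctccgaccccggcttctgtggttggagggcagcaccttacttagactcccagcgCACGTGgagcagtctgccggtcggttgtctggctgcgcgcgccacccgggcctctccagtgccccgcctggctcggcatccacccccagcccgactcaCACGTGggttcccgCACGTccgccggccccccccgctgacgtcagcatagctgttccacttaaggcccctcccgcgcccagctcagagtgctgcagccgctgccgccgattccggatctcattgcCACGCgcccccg
The EGLN3 window held 0 matches and the CA9 window 1, starting 18 bases before the start. The ADM window held 1, starting 101 bases before the start. The HK2 windows held 3 and 6, and the first LDHA window 6, with 2 CACGTG palindromes each in the second HK2 window and in LDHA.

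Genes of hypoxia were mostly higher in A549, while genes of glycolysis went both ways. In shGFP cells the median log2 ratio of A549 over H1299, on the log2(RPM + 1) scale, was 1.05 for the 7 oxygen sensing genes, 0.73 for the 12 HIF targets and 0.16 for the 21 glycolysis genes. It was 0.08 over the 14877 genes of both tables with a mean of at least 1 RPM over the lines, a minimum that all 40 members met. The median size of the ratio, whatever its direction, was 1.06, 0.73 and 0.62 in these roles, against 0.73 over all those genes. Every A549 library stood above every H1299 library for 24 of the 40 members, against 41% of those genes, and every H1299 library stood above every A549 library for 6, against 35.7%. Every A549 library was at least 2-fold above every H1299 library for 10 of the 40, against 15% of the same genes. These were HIF1A, EPAS1, EGLN3, CA9, CA12, NDRG1, P4HA2, PFKFB3, ALDOC and LDHA. Every H1299 library was at least 2-fold above every A549 library for 3 of the 40, EGLN2, HK2 and PFKM, against 12.6%. The tables were scaled separately, so these levels are a description with no test. With the values as deposited, which leave the ribosomal reads in, the counts were 16 and 1 of the 40, against 22.6 and 8.02% of the same genes.

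**Figure D1:**
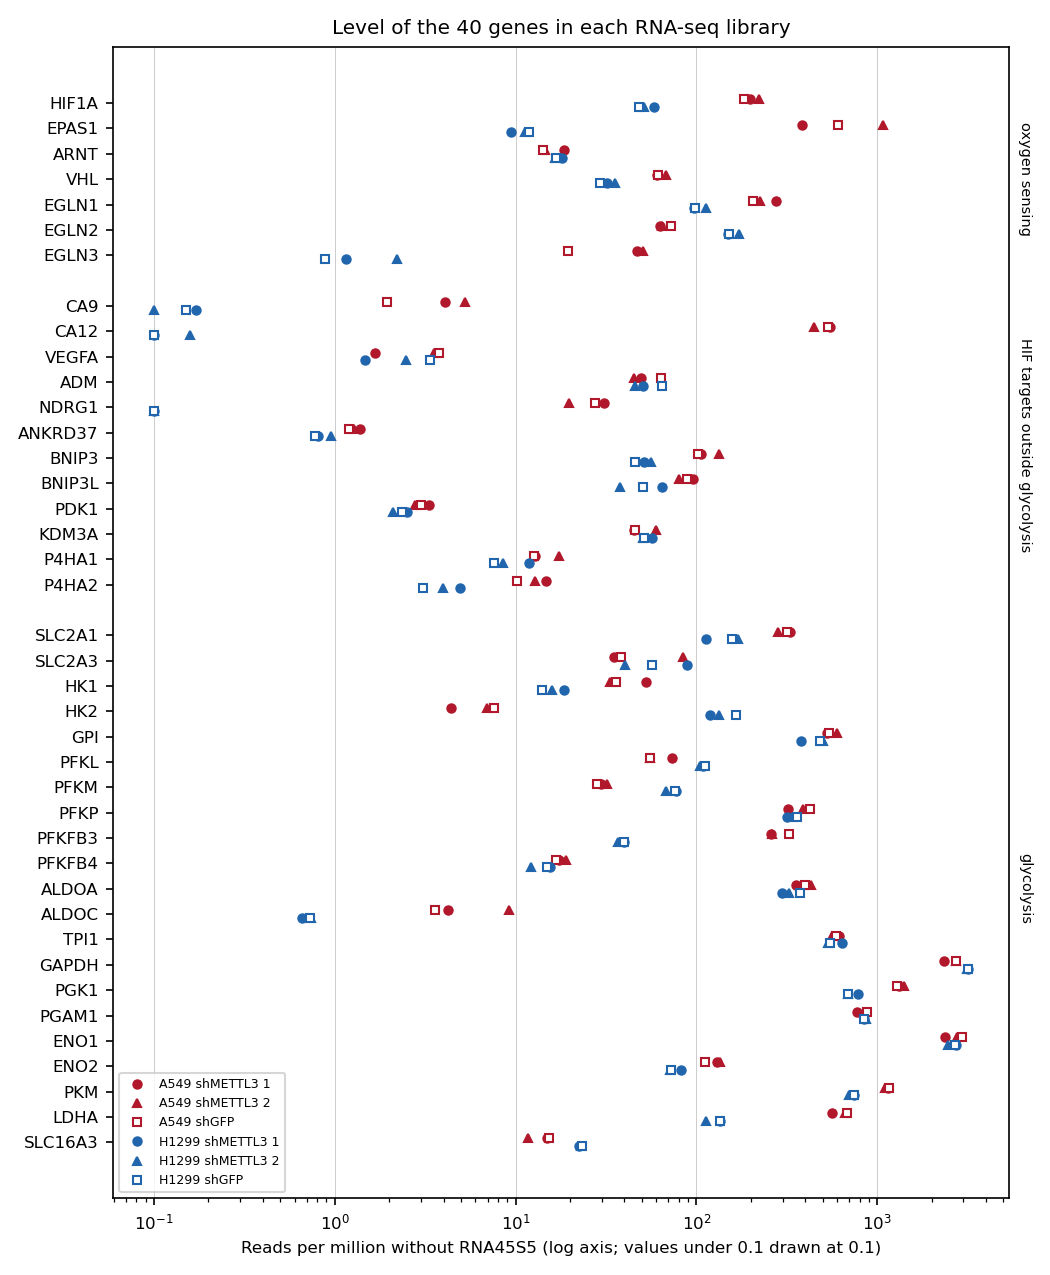
Level of each of the 40 genes in the 6 RNA-seq libraries, in RPM on a log axis, with 1 symbol per library and genes in the order of the 3 roles. CA12, EPAS1 and EGLN3 stand far to the right in A549 and HK2 stands far to the right in H1299, while GAPDH, ENO1, TPI1 and PGAM1 lie close together in the 2 lines.

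Among the oxygen sensors, the alpha subunit EPAS1 (HIF-2 alpha) set the lines apart most. It stood at 382.7, 1072 and 607.9 RPM in A549 shMETTL3 1, shMETTL3 2 and shGFP, and at 9.49, 11.3 and 11.9 RPM in the same order in H1299. Its shGFP level was 51.0-fold higher in A549. HIF1A, the alpha subunit found in most cell types, was 3.82-fold higher in A549, with 184.7 RPM in A549 shGFP and 48.3 RPM in H1299 shGFP. The libraries of the lines did not overlap for either gene. Of the reads of HIF1A and EPAS1 together, EPAS1 held 65.8, 82.9 and 76.7% in A549 shMETTL3 1, shMETTL3 2 and shGFP, and 14.0, 18.0 and 19.8% in H1299 in the same order. These shares are not corrected for length, so only their difference between lines can be read.

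The 3 prolyl hydroxylases split by line. EGLN3, itself a HIF target in many cell types, stood at 19.5 RPM in A549 shGFP and 0.88 RPM in H1299 shGFP, 22.1-fold apart. EGLN1, the main hydroxylase of HIF in cells with normal oxygen, stood at 204.8 RPM in A549 shGFP and 98.4 RPM in H1299 shGFP. EGLN2 ran the other way, with 72.3 RPM in A549 shGFP and 151.7 RPM in H1299 shGFP. EGLN2 held 16.3, 19.1 and 24.4% of the family's reads in A549 shMETTL3 1, shMETTL3 2 and shGFP, and 60.1, 59.8 and 60.4% in the H1299 libraries in that order. VHL, which recruits the ubiquitin ligase to hydroxylated HIF, was 2.09-fold higher in A549 shGFP than in H1299 shGFP without overlap of the libraries. ARNT, the partner of the alpha subunits, overlapped between the lines, with 14.1 to 18.5 RPM in A549 and 16.4 to 18.0 RPM in H1299.

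Of the 12 HIF targets, 9 stood above H1299 in every A549 library, 3 overlapped and none stood below. Over the 14877 genes of both tables, 41% stood above and 35.7% below in this way. Some gaps were small: the lowest A549 library was 1.07-fold above the highest H1299 library for P4HA1 and 1.12-fold for PDK1. CA12, a membrane carbonic anhydrase, had 2809, 2298 and 2803 scaled reads in A549 shMETTL3 1, shMETTL3 2 and shGFP, and 0, 0.6 and 0.4 in H1299. CA9, the related enzyme that is a common mark of hypoxic tumour tissue, had 21.1, 26.9 and 10.3 scaled reads in A549 and 0.7, 0 and 0.6 in H1299. NDRG1, a stress gene, had 159.6, 101.6 and 144.7 in A549 and was listed at 0 in all 3 H1299 libraries. No ratio is given for these 3 genes, because H1299 held none or only a few reads. ADM, KDM3A and VEGFA overlapped: ADM, a vasodilator peptide, had 63.4 RPM in A549 shGFP and 64.9 RPM in H1299 shGFP.

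The summed level of glycolysis was somewhat higher in A549, with every A549 library above every H1299 library. For 15 of the 21 genes the lines did not overlap, 10 with A549 above and 5 with H1299 above. Over the 14877 genes of both tables these shares were 41% and 35.7%, so lack of overlap was common among all genes. The summed level of the 21 genes was 11314, 12431 and 12604 RPM in A549 shMETTL3 1, shMETTL3 2 and shGFP, and 10713, 10342 and 10800 RPM in H1299. GAPDH and ENO1 together held 41.9 to 45.2% of this sum in A549 and 54.1 to 54.9% in H1299. At the first step, HK2, the hexokinase typical of tumours and muscle, whose windows held 3 and 6 matches to the HIF core, stood at 7.58 RPM in A549 shGFP and 164.7 RPM in H1299 shGFP, 21.7-fold higher in H1299. HK1, the hexokinase of most tissues, was 2.58-fold higher in A549 shGFP than in H1299 shGFP. HK2 held 7.68, 17.2 and 17.4% of hexokinase reads in A549 shMETTL3 1, shMETTL3 2 and shGFP, and 86.4, 89.3 and 92.2% in H1299. The exact 95% binomial intervals in A549, which cover counting error only, were 5.95 to 9.72%, 14.4 to 20.3% and 14.9 to 20.04%.

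At the phosphofructokinase step, PFKM (the muscle form) was 2.69-fold and PFKL (the liver form) 2.01-fold higher in H1299 shGFP than in A549 shGFP, while PFKP (the platelet form) overlapped. PFKFB3, which makes the activator of phosphofructokinase, stood at 325.4 RPM in A549 shGFP and 40.03 RPM in H1299 shGFP, 8.13-fold apart. LDHA, which turns pyruvate into lactate and whose first window held 6 matches, stood at 678.7 RPM in A549 shGFP and 135.6 RPM in H1299 shGFP, 5.01-fold apart. ALDOC, the brain form of aldolase, stood at 3.56 RPM in A549 shGFP and 0.73 RPM in H1299 shGFP. SLC16A3, which exports lactate, was 1.52-fold higher in H1299 shGFP. Several steps from aldolase to enolase differed little in shGFP cells: the ratio of A549 over H1299 was 1.06 for ALDOA, 1.08 for TPI1, 0.86 for GAPDH, 1.03 for PGAM1 and 1.10 for ENO1. PGK1 and PKM stood 1.85-fold and 1.56-fold higher in A549. GAPDH, PGAM1, TPI1, ENO1, PGK1, PKM and LDHA have processed pseudogene copies, and the authors' handling of reads that map to several places is not given in the sources used here, so their levels are uncertain.

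**Figure D2:**
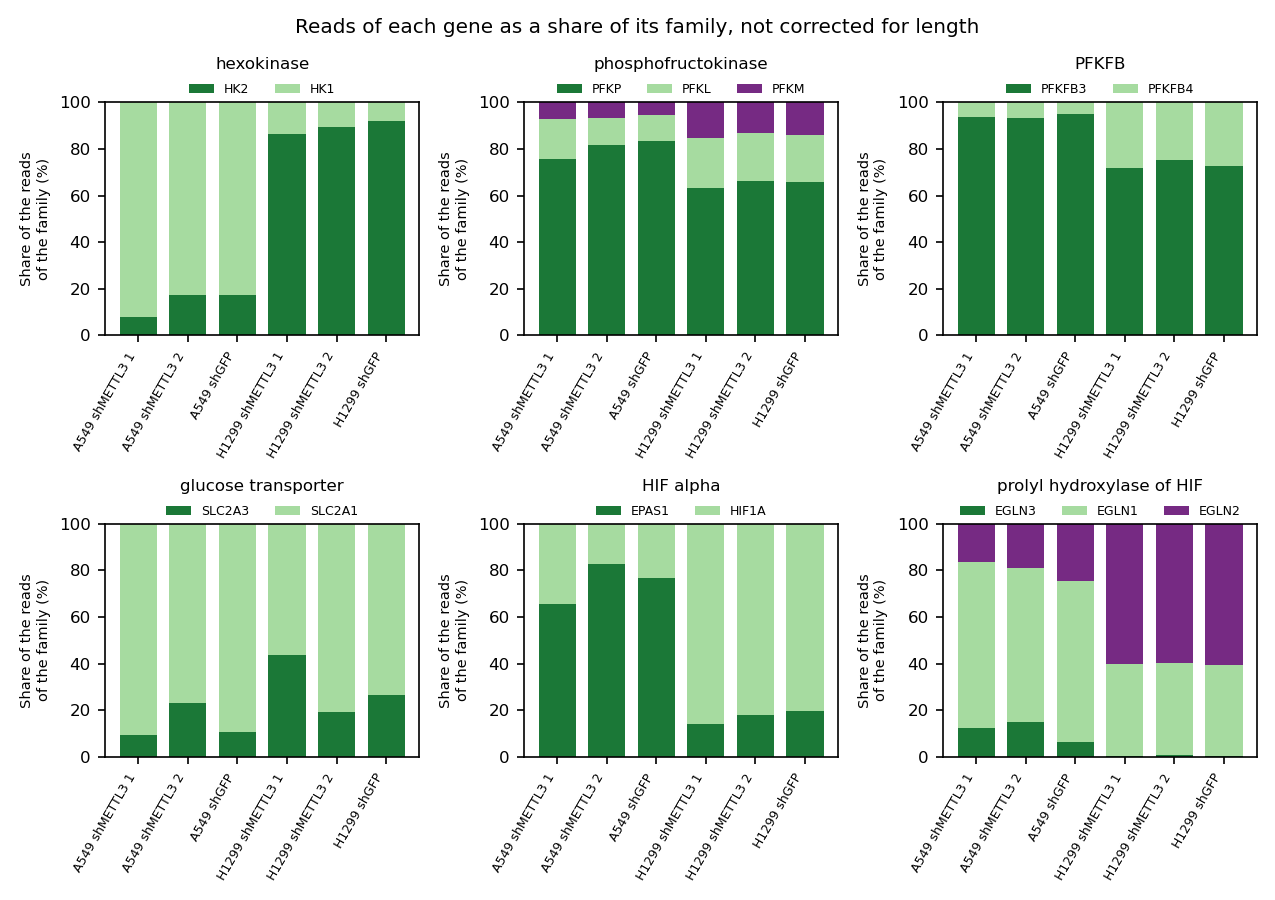
Share of the reads of 6 families held by each gene, in percent, with 1 bar for each of the 6 libraries and no correction for transcript length. HK2 and EGLN2 hold most reads of their families in H1299 and few in A549, and EPAS1 holds most reads of the HIF alpha pair in A549 and few in H1299.

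With METTL3 knockdown, no member passed the test at an adjusted p of 0.05 in either line. Of 17454 A549 genes and 16470 H1299 genes with a mean of at least 1 scaled read, limma with Benjamini-Hochberg adjustment called 0, which is 0% of each, and edgeR's quasi-likelihood test on the recovered A549 reads called 0. At an unadjusted p under 0.05 limma held 115 genes (0.659%) in A549 and 99 (0.601%) in H1299, and edgeR held 138 in A549. Among the members these were EGLN3 and CA9 of 40 in A549, and 0 of 37 in H1299. Each line had 1 residual degree of freedom, and the spread of its single shGFP library is taken to be that of the knockdown libraries. CA9, CA12 and NDRG1 had a mean under 1 in H1299 and were left out of every H1299 count.

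By direction alone, both A549 knockdown libraries stood above shGFP for 13 of the 40 members and below it for 12, against 27.2% and 27.2% of all genes. By role, the counts above and below were 4 and 1 of 7 oxygen sensors, 4 and 2 of 12 HIF targets, and 5 and 9 of 21 glycolysis genes. In H1299, 10 of 37 members stood above shGFP in both libraries and 10 below, against 30.6% and 24.5% of all genes. There the counts above and below were 5 and 1 of 7 oxygen sensors, 4 and 2 of 9 HIF targets, and 1 and 7 of 21 glycolysis genes. The oxygen sensors above in both H1299 libraries numbered 3 of 7 in RPM, with median-centred values and with TMM scaling, against 34.7, 29.3 and 30.1% of all genes, because EGLN1 and EGLN2 then lay on both sides of shGFP. With median-centred H1299 values 13 of the 21 glycolysis genes stood below shGFP in both libraries, against 29.3% of all genes, and with TMM scaling 12 did, against 28.9%. The libraries of a line share their control, so agreement between numbers 1 and 2 is not independent.

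The median log2 changes were small in every role. In A549 shMETTL3 1 and 2 they were 0.08 and 0.12 for oxygen sensing, 0.06 and -0.04 for HIF targets, and -0.06 and -0.04 for glycolysis, against 0.02 and -0.01 for all genes. In H1299 they were 0.15 and 0.11 for oxygen sensing, 0.19 and -0.08 for HIF targets, and 0.03 and -0.15 for glycolysis, against 0.09 and -0.04 for all genes. The glycolysis median lay below the HIF target median in all 4 knockdown libraries, by 0.12 and 0.01 in A549 and by 0.16 and 0.07 in H1299. The lists of other genes described below did not keep this order. Medians of other glycolysis genes were 0.11 and 0.05 in A549 shMETTL3 1 and 2, and -0.02 and -0.03 in H1299. Those of other HIF targets were -0.12 and 0.23 in A549, and -0.06 and -0.09 in H1299. In H1299 shMETTL3 1 the glycolysis median turned to -0.01 in RPM and to -0.06 with median-centred values. A minimum mean of 20 turned the HIF target median of A549 shMETTL3 2 to 0.07. The summed glycolysis level was 89.8 and 98.6% of shGFP in A549 shMETTL3 1 and 2, and 99.2 and 95.8% in H1299.

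**Figure D3:**
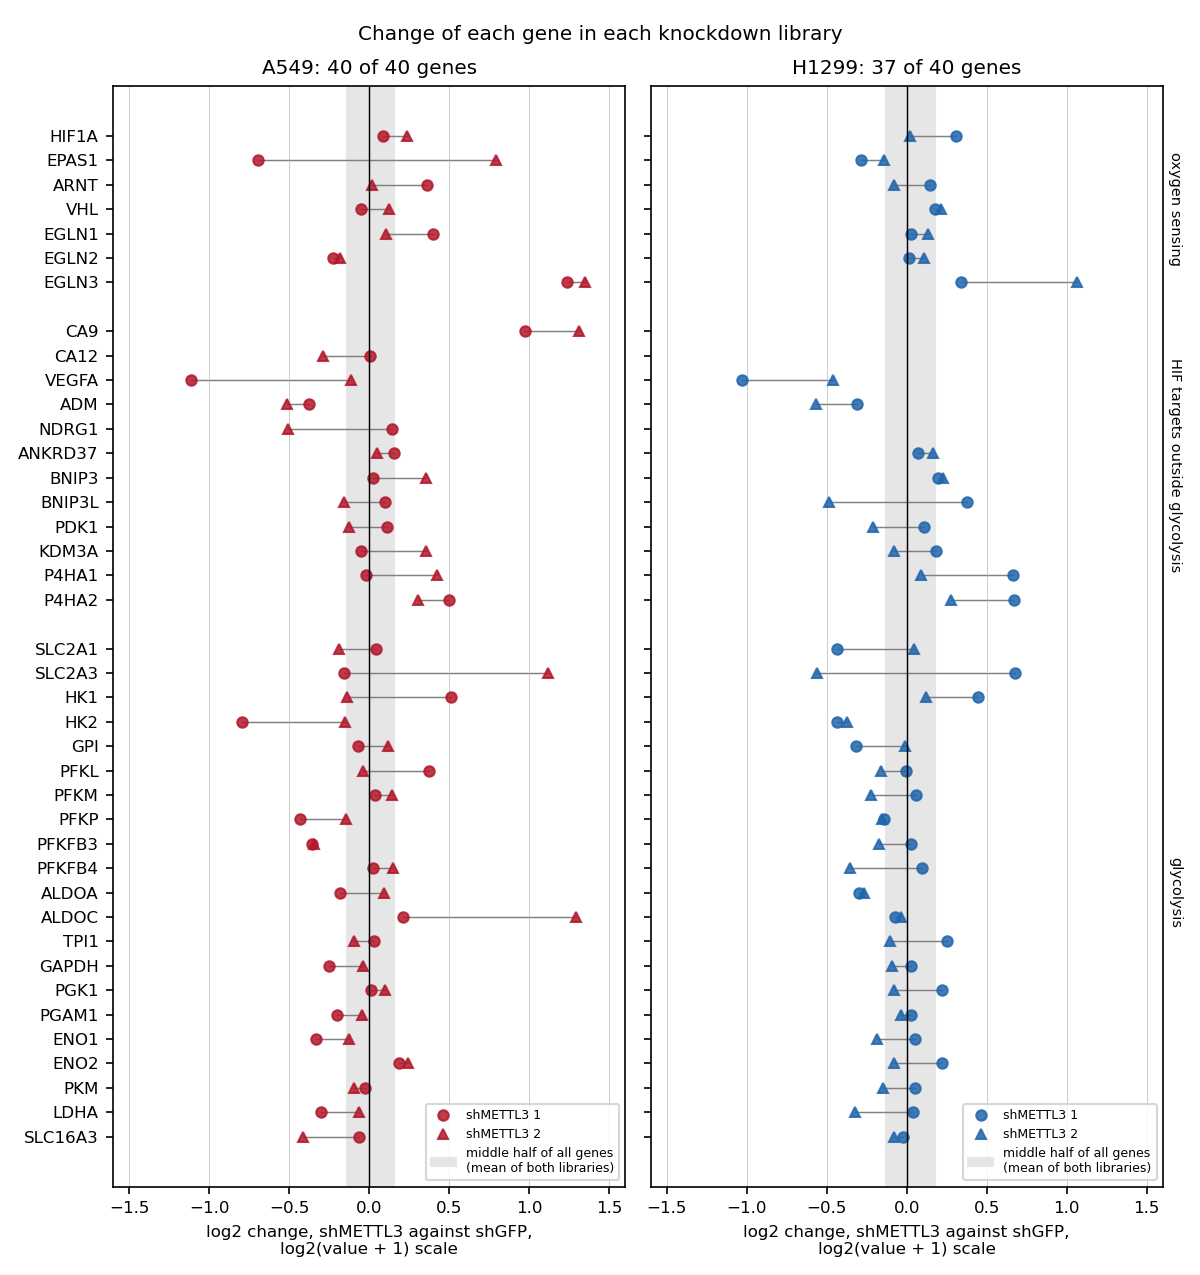
Log2 change of each gene against the shGFP library of its line, on the log2(value + 1) scale, for shMETTL3 1 (circles) and shMETTL3 2 (triangles). The grey band holds the middle 50% of all genes by the mean change of both libraries, while each symbol is 1 library. EGLN3 lies to the right of the band in both A549 libraries, at 1.24 and 1.35, and ADM to its left in all 4 libraries, while most glycolysis genes lie in or near the band.

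EGLN3, whose promoter window held 0 matches to the HIF core, had the largest log2 change of the members in A549. It had 241.8 and 261.6 scaled reads in A549 shMETTL3, against 102.1 in A549 shGFP, or 677, 837 and 388 recovered reads. In H1299, where it was near the limit of detection, it had 4.7 and 8.4 scaled reads in shMETTL3, against 3.5 in shGFP. Both knockdown libraries stood above shGFP in each line, by a wide gap in A549 and by little for shMETTL3 1 in H1299. The log2 change was 1.29 (SE 0.20; unadjusted p = 0.00202, adjusted p = 1 by limma with Benjamini-Hochberg) in A549 and 0.70 (SE 0.44) in H1299. On the log2(value + 1) scale, EGLN3 was the only member at least 2-fold above shGFP in both A549 libraries, against 0.321% of all genes. CA9 stood at 205 and 262% of shGFP in scaled reads, but its log2 change in A549 shMETTL3 1 was 0.97 on that scale. No member was 2-fold below shGFP in both libraries of either line, against 0.0745% of all genes in A549 and 0.0304% in H1299, or 2-fold above in both of H1299, against 0.103%. EGLN3 held 12.2 and 14.98% of the reads of the 3 hydroxylases in A549 shMETTL3, against 6.57% in A549 shGFP.

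The other sensors lay nearer to their controls. HIF1A had 1025 and 1141 scaled reads in A549 shMETTL3, against 967.6 in shGFP, and 238.0 and 195.0 in H1299 shMETTL3, against 192.0 in shGFP. EGLN1 had 1418 and 1152 in A549 shMETTL3, against 1073 in shGFP, and 397.8 and 428.0 in H1299 shMETTL3, against 390.8 in shGFP. HIF1A stood above shGFP in all 4 libraries, in H1299 shMETTL3 2 by only a few percent. EGLN1 did so in scaled reads, but in RPM, with median-centred values and with TMM scaling its H1299 shMETTL3 1 library lay below shGFP, with log2 changes of -0.01, -0.06 and -0.06. EPAS1 lay on both sides of its control in A549, with 1970 and 5516 scaled reads in shMETTL3 1 and 2, against 3186 in shGFP. In H1299 it stood below shGFP in both, with 38.7 and 42.8 against 47.3, a log2 change of -0.21 (SE 0.28). EGLN2 stood below shGFP in A549, with 323.9 and 333.1 in shMETTL3 against 378.7, and above it in H1299, with 607.1 and 650.2 in shMETTL3 against 602.4; in RPM, with median-centred values and with TMM scaling H1299 shMETTL3 1 lay below shGFP, with log2 changes of -0.03, -0.08 and -0.08. VHL had 310.4 and 349.4 in A549 shMETTL3 against 321.1 in shGFP, and 131.3 and 135.2 in H1299 shMETTL3 against 116.3 in shGFP. ARNT had 95.4 and 75 in A549 shMETTL3 against 74.0 in shGFP, and 73.3 and 62.4 in H1299 shMETTL3 against 66.1 in shGFP, so its H1299 libraries lay on both sides of the control.

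HIF targets did not share a direction. ADM had 255.7 and 232.2 scaled reads in A549 shMETTL3, against 332.1 in A549 shGFP. It had 208.0 and 173.4 in H1299 shMETTL3, against 257.8 in H1299 shGFP. All 4 knockdown libraries stood below their control, with log2 changes of -0.45 (SE 0.20) in A549 and -0.44 (SE 0.24) in H1299. VEGFA, the main vessel growth factor, was also below its control in all 4, with 8.57 and 18.1 scaled reads in A549 shMETTL3 against 19.7 in shGFP, and 6.0 and 9.4 in H1299 shMETTL3 against 13.3 in shGFP. Its second A549 library lay close to the control, and its log2 changes were -0.62 (SE 0.53) and -0.75 (SE 0.39).

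P4HA2, a subunit of the prolyl hydroxylase that matures collagen, stood on the other side of its controls. It had 75.7 and 66.3 scaled reads in A549 shMETTL3, against 53.4 in A549 shGFP, and 20 and 15 in H1299 shMETTL3, against 12.2 in H1299 shGFP. All 4 knockdown libraries stood above their control, with log2 changes of 0.40 (SE 0.25) and 0.47 (SE 0.35). The fibroblast markers, a list led by COL1A1, stood above shGFP as a sum in the same libraries. They summed to 102.5 and 77.5 scaled reads in A549 shMETTL3 against 61.6, and to 30.8 and 33.2 in H1299 shMETTL3 against 12.5. Of the 5 listed, 3 had a mean of at least 1 in A549. In H1299 only 1 did, with COL1A2 listed at 0, so that sum rests mostly on 1 gene. Their part in the result was not tested. In bulk RNA, a change in the share of cells that express a gene and a change per cell cannot be told apart. P4HA1, the sister subunit, had 65.7 and 89.7 in A549 shMETTL3 against 66.6 in shGFP, on both sides of it (both above it in RPM), and 48.4 and 32.2 in H1299 shMETTL3 against 30.2 in shGFP, both above it (log2 change 0.38, SE 0.35).

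CA9 had 59 and 86 reads in A549 shMETTL3, against 39 in A549 shGFP. Scaled for depth, both knockdown libraries stood above the control, with a log2 change of 1.14 (SE 0.35; unadjusted p = 0.0255, adjusted p = 1 by limma with Benjamini-Hochberg). CA12, by contrast, was level with shGFP in shMETTL3 1 and below it in shMETTL3 2. BNIP3, which marks mitochondria for removal, stood above shGFP in all 4 libraries, with 545.0 and 683.8 scaled reads in A549 shMETTL3 against 535.5, and 209.3 and 213.6 in H1299 shMETTL3 against 182.5. Its relative BNIP3L lay on both sides of the control in each line, as did PDK1, which keeps pyruvate out of the mitochondria, and KDM3A, a histone demethylase. ANKRD37 stood above shGFP in all 4, except in H1299 shMETTL3 1 with median-centred values, at only 6.32 to 7.14 scaled reads in A549 and 3.1 to 3.6 in H1299. NDRG1 had log2 changes of 0.14 and -0.51 in A549 shMETTL3 1 and 2.

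In glycolysis, HK2 and PFKP stood below their controls in both lines. HK2 had 22.5 and 35.6 scaled reads in A549 shMETTL3, against 39.7 in A549 shGFP, and 483.1 and 505.6 in H1299 shMETTL3, against 654.3 in H1299 shGFP. All 4 knockdown libraries stood below their control, though shMETTL3 2 of A549 lay near it. The log2 changes were -0.47 (SE 0.38) in A549 and -0.40 (SE 0.20) in H1299. HK1 stood above shGFP in both H1299 libraries, with 76.0 and 60.4 against 55.5 (log2 change 0.28, SE 0.29), and on both sides of it in A549, with 270.4 and 171.9 against 189.2. PFKP had 1645 and 2002 in A549 shMETTL3, against 2217 in shGFP, and 1302 and 1289 in H1299 shMETTL3, against 1435 in shGFP. It too was below its control in all 4 libraries, with log2 changes of -0.29 (SE 0.23) and -0.15 (SE 0.18).

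PFKFB3 stood below shGFP in A549 and on both sides of it in H1299, where RPM, median-centred values and TMM scaling put both libraries below. It had 1329 and 1342 scaled reads in A549 shMETTL3, against 1705 in A549 shGFP, a log2 change of -0.35 (SE 0.19), and 162.2 and 140.8 in H1299 shMETTL3, against 159.0 in H1299 shGFP. ALDOC had 21.8 and 47.2 in A549 shMETTL3, against 18.7 in shGFP, and 2.7 and 2.8 in H1299 shMETTL3, against 2.9 in shGFP. Its A549 log2 change of 0.75 (SE 0.53) came mainly from shMETTL3 2. ALDOA had 1835 and 2222 in A549 shMETTL3, on both sides of 2082 in shGFP, and 1217 and 1243 in H1299 shMETTL3, both below 1496 in shGFP (log2 change -0.28, SE 0.18). LDHA had 2886 and 3408 in A549 shMETTL3 against 3557 in shGFP, both below, and 553.1 and 429.6 in H1299 shMETTL3, on both sides of 538.4 in shGFP, or both below it with median-centred values and TMM scaling. SLC16A3 was the fifth member below its control in all 4 libraries, with 77.1 and 60.3 in A549 shMETTL3 against 80.5, and 91.3 and 87.8 in H1299 shMETTL3 against 92.9.

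The 6 genes from GAPDH to PKM were on different sides of shGFP in A549 and turned sides between libraries in H1299. In A549, GAPDH, PGAM1, ENO1 and PKM stood below shGFP in both libraries, and PGK1 and ENO2 (the neuronal enolase) stood above it in both. In H1299, all 6 stood above shGFP in shMETTL3 1 and below it in shMETTL3 2. With median-centred H1299 values, GAPDH, PGAM1, ENO1 and PKM stood below it in both, as did GAPDH in RPM and GAPDH, ENO1 and PKM with TMM scaling. Median-centred A549 values put PGK1 on both sides of shGFP. Their log2 changes ran from -0.33 to 0.24 in A549 and from -0.19 to 0.22 in H1299, and their medians were -0.11 and -0.04 in A549 shMETTL3 1 and 2, and 0.05 and -0.09 in H1299. ENO1 had 12299 and 14180 scaled reads in A549 shMETTL3, against 15493 in shGFP, and 11075 and 9359 in H1299 shMETTL3, against 10663 in shGFP. GAPDH, often used to scale other genes, had log2 changes of -0.25 and -0.04 in A549 and 0.03 and -0.09 in H1299. The remaining glycolysis genes, SLC2A1, GPI, PFKL, PFKM, PFKFB4 and TPI1, had limma log2 changes from -0.07 to 0.16 in A549 and from -0.19 to 0.07 in H1299. These are means of 2 libraries that often lay on both sides of shGFP. Single libraries ran from -0.43 (SLC2A1, H1299 shMETTL3 1) to 0.37 (PFKL, A549 shMETTL3 1).

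**Figure D4:**
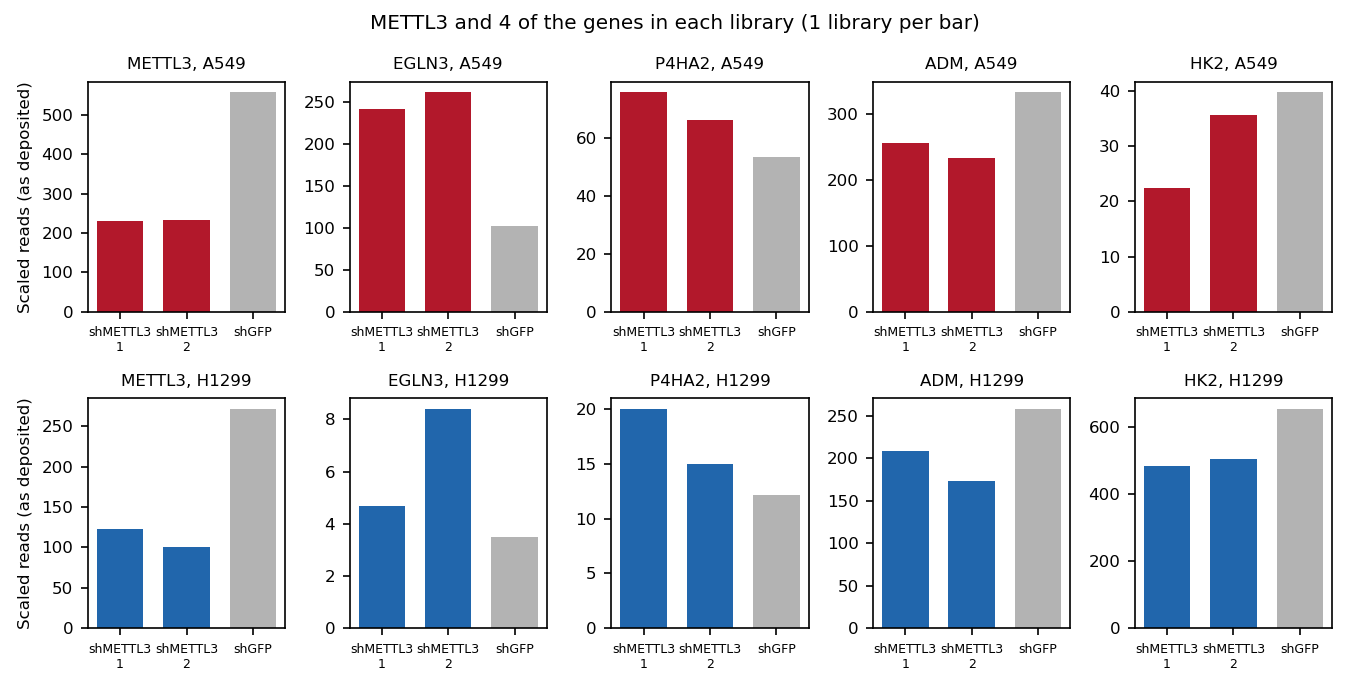
Scaled reads of METTL3, EGLN3, P4HA2, ADM and HK2, with 1 bar per library, A549 above and H1299 below, each panel with its own axis from 0. METTL3, ADM and HK2 are lower in both shMETTL3 libraries than in shGFP of each line, and EGLN3 and P4HA2 are higher, with EGLN3 at 8.4 scaled reads or fewer in H1299.

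Over both lines, 6 of 37 members stood above shGFP in all 4 knockdown libraries and 5 stood below, against 10.5 and 9.05% of all genes. In RPM, 6 stood above and 7 below, against 13.3 and 7.66%; with median-centred values 4 and 11 did, against 9.96 and 10.8%, and with TMM scaling 5 and 10 did, against 10.2 and 10.7%. HIF1A, EGLN3, BNIP3 and P4HA2 were above, and VEGFA, ADM, HK2, PFKP and SLC16A3 below, under each of these scalings. In a limma fit of all 6 libraries with a term for line, 0 of 15546 genes (0%) had an adjusted p under 0.05, and 374 (2.41%) had an unadjusted p under 0.05, METTL3 among them with a log2 change of -1.27 (SE 0.13; adjusted p = 0.139 by limma with Benjamini-Hochberg). Of the 37 members, 4 had an unadjusted p under 0.05. By limma the log2 change was 0.997 (SE 0.25, unadjusted p = 0.00381) for EGLN3, -0.44 (SE 0.13, unadjusted p = 0.00799) for ADM, -0.44 (SE 0.18, unadjusted p = 0.0441) for HK2 and 0.44 (SE 0.19, unadjusted p = 0.0462) for P4HA2. Their adjusted p was 1 with Benjamini-Hochberg in every case. Among all alternatives run for EGLN3 its log2 change over both lines stayed between 0.88 and 1.19. For the difference between the lines' changes, limma held 0 of 15546 genes (0%) at an adjusted p under 0.05 and 49 (0.315%) at an unadjusted p under 0.05, with 0 of the 37 members among them.

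The knockdown libraries of a line differed from each other about as much for the members as for other genes. Among genes with a mean of at least 20, the median size of the log2 difference between libraries 1 and 2 was 0.24 for 36 members and 0.21 for 11983 genes in A549, and 0.24 for 31 members and 0.22 for 10815 genes in H1299. In A549, EPAS1 was 2.80-fold, the glucose transporter SLC2A3 2.42-fold and ALDOC 2.17-fold higher in shMETTL3 2 than in shMETTL3 1. HK1 and NDRG1 were 1.57-fold higher in shMETTL3 1. In H1299, SLC2A3 was 2.36-fold and BNIP3L 1.83-fold higher in shMETTL3 1, and SLC2A1, the transporter of most tumour cells, was 1.40-fold higher in shMETTL3 2. SLC2A3 lay on both sides of shGFP in each line, with 180.0 and 436.3 scaled reads in A549 shMETTL3 against 200.8 in shGFP, and 361.3 and 152.8 in H1299 shMETTL3 against 225.5 in shGFP.

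Other genes of the same pathways, from lists that hold no member, gave 0 calls in either direction by limma with Benjamini-Hochberg. Of 33 other HIF targets, 9 stood above and 3 below shGFP in both A549 libraries, and 7 above and 11 below in both H1299 libraries. Over all genes the shares above and below were 27.2 and 27.2% in A549 and 30.6 and 24.5% in H1299, and these shares also stand behind the counts of the lists that follow. STC2, a secreted glycoprotein, had 200.7 and 865.9 in A549 shMETTL3 1 and 2, on both sides of 692.4 in A549 shGFP, and VLDLR and STC1 also lay on both sides. WSB1 and MXI1 had log2 changes of 0.45 and -0.43 in H1299. Of 12 other regulators of HIF, 1 stood above and 4 below in both A549 libraries. The 1 above was CITED2, which competes with HIF for the coactivator p300, with 30.7 and 31.3 in A549 shMETTL3 against 16.8 in A549 shGFP (log2 change 0.84, SE 0.29). RBX1 and CUL2, parts of the VHL ligase, had log2 changes of -0.18 and -0.14 in A549. In H1299, 1 of 10 stood above and 4 below, and SIAH2, EP300 and TCEB1 had log2 changes of -0.31, -0.15 and 0.15. Of 16 other glycolysis genes measured in A549, 6 stood above and 4 below in both libraries, and SLC2A8, SLC2A6 and ADPGK had log2 changes of 0.32, 0.26 and -0.20. Of 14 measured in H1299, 3 stood above and 6 below, and GAPDHS, PGAM2 and LDHB had log2 changes of -0.36, -0.30 and 0.22.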

How the data were processed

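RNA-seq of 6 libraries was used: per line, 2 of shMETTL3 cells and 1 of shGFP cells. Per the labels' protocols, messenger RNA was purified and TruSeq Stranded mRNA libraries were made. TopHat, Bowtie and hg19 are named in the submitters' processing notes; the read counter, annotation, strand setting and treatment of multiply mapping reads are not given in the sources used here, so reads of overlapping antisense genes may be mixed. The headers of the A549 table call the knockdown columns shMEL, which were taken as the shMETTL3 libraries 1 and 2 by their numbers.

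The authors deposited, for each line, a table of signal values per gene, which are reads divided by 1 factor per library (2.8, 3.2 and 3.8 in A549 shMETTL3 1, 2 and shGFP). With these factors 100% of the A549 values came out whole within rounding, and edgeR's quasi-likelihood test on those reads, an alternative, called 0 genes. H1299 values carry 1 decimal, at which 45 to 51% of any values would look whole, so no reads were taken from them and the count test was not run there or over both lines.

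The 40 members, the gene lists and the tests were chosen with earlier results of these data known. Tests used log2(value + 1), genes with a mean of at least 1, limma 3.58.1 (intensity trend) in R 4.3.3, and Benjamini-Hochberg adjustment over all genes with a threshold of 0.05; fold changes on this scale understate those of low genes. EdgeR was version 4.0.16, and shares used exact binomial intervals from scipy 1.17.1. The script was tested on simulated data. RPM is each value divided by the library's sum without RNA45S5. Genes named with values were METTL3, all regulators, the members with the 6 largest changes per line among those with a mean of at least 20 and both libraries on 1 side, those on 1 side in all 4 libraries, those 2-fold apart between lines, isozyme families and, per further list, the 3 largest changes at a mean of at least 20; CA9 in A549 and SLC2A3 were also described. A few genes of the further lists are not reported here. Alternatives were pseudocounts, minimum means, scalings, a fit without trend, all 6 libraries in 1 fit, and leaving out each knockdown library. In A549 27 and in H1299 25 names were dates or repeated. Promoter windows are from RefSeq on GRCh38.p14. The 3 deposited lists of m6A peaks were not used, since no gene annotation of their build was used here.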

Additional observations from a re-analysis of the deposited data

Results flagged for a closer look

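EGLN2, a prolyl hydroxylase of HIF, stood below shGFP in both A549 knockdown libraries and above it in both H1299 knockdown libraries, in scaled reads. In RPM, with median-centred values and with TMM scaling its H1299 shMETTL3 1 library lay below shGFP, with log2 changes of -0.03, -0.08 and -0.08, so the opposite sides were not kept. Its log2 changes were -0.20 (SE 0.19) in A549 and 0.06 (SE 0.20) in H1299, and the A549 change minus the H1299 change was -0.27 (SE 0.26; adjusted p = 1 by the interaction term in limma with Benjamini-Hochberg). The opposite sides alone singled it out, and the test of the difference did not pass.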

How the results depend on the processing

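No call among the members changed under any alternative. In the main fits no member lay near the threshold, so an unchanged call says little about how stable its change was. For single genes, 393 results kept their side of the threshold. Of the results counted as headlines, 220 stayed the same and 26 moved. Directions were not all kept when a library was left out. A549 EPAS1, at 0.05 over both libraries, had log2 changes of -0.69 and 0.79 in shMETTL3 1 and 2. METTL3 over both lines alone passed (log2 change -1.30, adjusted p = 0.0448 by limma) with median-centred values, which gave 1 called gene against 0. Leaving out each knockdown library in turn gives the median log2 change of the other. In A549 these medians ran from 0.0835 to 0.122 for oxygen sensing, -0.035 to 0.0622 for HIF targets and -0.0613 to -0.0424 for glycolysis. In H1299 they ran from 0.11 to 0.147 for oxygen sensing, -0.0802 to 0.185 for HIF targets and -0.15 to 0.0286 for glycolysis. With both libraries kept, the A549 glycolysis median was -0.0185 in RPM. With 1 knockdown library left, members above shGFP numbered 20 to 21 in A549 and 11 to 26 in H1299, and those below 19 to 20 and 11 to 26. For glycolysis the counts above were 8 to 9 in A549 and 2 to 13 in H1299, and those below in H1299 were 8 to 19. A count that asks for 1 library in place of 2 is larger by construction. It also follows shifts of the whole library. Of 16470 H1299 genes, 6137 lay below shGFP in shMETTL3 1 and 9131 in shMETTL3 2. Of 17454 A549 genes, 8334 and 9103 did. In H1299, median-centred values put 16 members and 13 glycolysis genes below shGFP in both libraries, against 29.3% of all genes. TMM scaling put 12 glycolysis genes there, against 28.9%. TMM scaling put the summed H1299 glycolysis level at 95.02% of shGFP, against 97.5% in RPM. Between lines, 16 members were higher in A549 and 1 in H1299 with the values as deposited, against 22.6 and 8.02% of all genes. At 1.5-fold 16 were higher in A549. A lower fold raises such a count by construction, and the share of all genes at 1.5-fold is not given here. Summing the values as deposited was an alternative chosen after seeing the data.

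No paired analysis was possible because each line has 1 shGFP library, which carries no number. Shares per length and m6A peaks on the members were not run, nor edgeR for H1299 or over both lines. In H1299, EGLN3, CA9, CA12, VEGFA, ANKRD37, PDK1, P4HA2, ALDOC and NDRG1 lay under 20 scaled reads, where counting error limits what can be read.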

Other observations

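Genes beside glycolysis also had 0 calls by limma with Benjamini-Hochberg. Of 15 genes of lactate and pyruvate entry into mitochondria, 4 stood above and 1 below shGFP in both A549 libraries, and 6 above and 4 below in H1299. Over all genes tested the shares above and below were 27.2 and 27.2% in A549 and 30.6 and 24.5% in H1299. DLAT, a subunit of pyruvate dehydrogenase, stood below its control in all 4, with 436.8 and 508.4 scaled reads in A549 shMETTL3 against 578.7 in A549 shGFP, and 332.4 and 398.8 in H1299 shMETTL3 against 460.2 in H1299 shGFP. PDK4 and PDK3, which inhibit that enzyme, had log2 changes of 0.32 (SE 0.25) and 0.25 (SE 0.28) in A549, and PDHB and MPC2 had 0.34 (SE 0.26) and 0.32 (SE 0.31) in H1299.

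Of 8 measured genes of the pentose phosphate pathway, 2 stood above and 1 below shGFP in both A549 libraries, and 2 above and 4 below in H1299. H6PD had 122.7 and 126.6 scaled reads in H1299 shMETTL3, against 179.8 in H1299 shGFP, and RPIA had 173.1 and 155.4, against 117.1. PGD, PGLS and RPE had log2 changes of -0.24, 0.19 and -0.16 in A549. Among genes of gluconeogenesis and glycogen, 5 of 13 stood above and 4 below in both A549 libraries, and 0 of 12 above and 6 below in H1299. PGM2, GYS1 and PCK2 had log2 changes of -0.35, 0.28 and -0.22 in A549, and UGP2, PCK2 and PYGL had -0.29, -0.28 and -0.28 in H1299, where UGP2 and PYGL lay on both sides of shGFP.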
